A study of Mus musculus with 6 samples.

Results

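The genes described here are 10 genes of the response to low oxygen and of glycolysis (Hif1a, Egln3, Slc2a1, Hk2, Ldha, Pdk1, Vegfa, Adm, Ndrg1 and Bnip3), followed in colonic intestinal epithelial cells (IECs). They were chosen by name, as well-known members of the pathway, but with earlier results of these data known. Each symbol labelled 1 row of the count table, so the 10 members are 10 of the 55487 genes listed, and all 10 passed the filter on low counts that left 14650 genes to be tested. RNA was sequenced from IECs of C57BL/6J mice given dextran sodium sulphate (DSS), a polymer in the drinking water that injures the colonic epithelium and causes colitis. The 3 Nsd2 f/f libraries came from mice with an intact Nsd2 gene that carries loxP sites on either side. The 3 Nsd2 Vil-KO libraries came from mice that carry the same floxed gene together with Cre under the Villin promoter, which removes Nsd2, a histone methyltransferase of H3K36, from intestinal epithelium. Both groups received DSS, so no library shows the pathway without colitis, and the methods of the study give 2% DSS from 2 months of age for its colitis protocol, with littermates as controls. The day on which the cells for sequencing were taken is not stated, nor whether each library is 1 mouse, so p-values measure the spread between these libraries, which may be in part technical.

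Hypoxia-inducible factor (HIF) is a transcription factor made of an oxygen-regulated alpha subunit, such as HIF1A, and a constant beta subunit, ARNT. In the presence of oxygen, prolyl hydroxylases such as EGLN3 mark the alpha subunit, and the VHL protein then directs it to degradation. When oxygen falls, HIF accumulates and switches on glucose uptake, glycolysis, lactate production, blood vessel growth and mitophagy, and it also raises EGLN3 itself. The colonic surface lies next to an almost oxygen-free lumen, and its epithelium is known for low oxygen even in health. The amount of HIF1A protein is set mainly by its degradation, which counts of mRNA do not show.

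HIF binds a short DNA core, ACGTG or GCGTG, near many of its targets. RefSeq promoters on GRCm38.p6, each with 250 bases before and 50 bases after a transcription start, were found for 9 of the 10 members, in 12 windows, and Ndrg1 had no entry. The cores were searched on both strands, and a palindromic CACGTG holds a match on each strand, so its matches overlap. All 9 members had at least 1 match in 1 of their windows, and 10 of the 12 windows held a match. A window of Pdk1 and the Vegfa window nearest the start of its gene held 0, so Vegfa counts only through a window further inside the gene. Of all 32851 promoter windows, 43.8% held a match, and of the 11378 windows with at least 15 CpG dinucleotides 71.4% did, so such a match is common. The 250 bases before the start are printed for Hif1a and Egln3, whose libraries separated by genotype, and for Ldha and Hk2. Ldha had the highest level and the most matches of the members, and Hk2 the largest ratio of highest to lowest library. The printed bases run 5′ to 3′ on the strand of the gene, and the capitals mark the core on either strand.
Hif1a: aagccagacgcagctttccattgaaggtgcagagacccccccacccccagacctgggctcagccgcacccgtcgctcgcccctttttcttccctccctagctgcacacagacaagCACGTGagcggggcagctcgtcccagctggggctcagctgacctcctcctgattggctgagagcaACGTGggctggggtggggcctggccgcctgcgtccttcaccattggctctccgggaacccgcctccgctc
Egln3: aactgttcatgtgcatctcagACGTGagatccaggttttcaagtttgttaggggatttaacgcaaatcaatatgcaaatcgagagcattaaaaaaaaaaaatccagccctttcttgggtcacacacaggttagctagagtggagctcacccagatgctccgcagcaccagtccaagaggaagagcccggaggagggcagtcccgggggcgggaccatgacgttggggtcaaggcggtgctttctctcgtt
Hk2: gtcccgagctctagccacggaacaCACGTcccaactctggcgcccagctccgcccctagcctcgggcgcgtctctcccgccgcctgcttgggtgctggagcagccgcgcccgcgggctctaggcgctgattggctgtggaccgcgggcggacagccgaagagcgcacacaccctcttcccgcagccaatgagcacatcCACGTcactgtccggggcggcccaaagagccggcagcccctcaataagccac
Ldha: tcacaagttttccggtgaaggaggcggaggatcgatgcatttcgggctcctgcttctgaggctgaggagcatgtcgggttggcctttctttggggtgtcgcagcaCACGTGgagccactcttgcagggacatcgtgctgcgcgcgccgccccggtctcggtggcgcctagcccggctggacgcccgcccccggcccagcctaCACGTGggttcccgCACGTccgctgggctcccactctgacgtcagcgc

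The Hif1a stretch lies at chr12:73907617-73907866 on the plus strand, that of Egln3 at chr12:54203875-54204124 on the minus strand, that of Hk2 at chr6:82774455-82774704 on the minus strand and that of Ldha at chr7:46845554-46845803 on the plus strand. The Ldha window held 7 matches, of which 2 lay past the start and are not printed, the Hif1a window 3, the Hk2 window 2 and the Egln3 window 1, at 229 bases before the start. These matches describe the letters of the windows and were not tied to binding in these cells.

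Between 15439123 and 20350539 reads were counted per library, and values are given as CPM, counts scaled to a common library size with TMM factors. Values of a genotype are listed in the order of replicates 1, 2 and 3. A floor of 3 counts equalled 0.146 to 0.242 CPM. A pair of libraries stood apart: those labelled Nsd2 f/f replicate 3 and, among the Nsd2 Vil-KO libraries, replicate 2 held 4296 and 3684 reads of Xist, which female cells transcribe, against 1 to 5 in the other 4, and their mean Spearman correlation with those 4 was 0.940 and 0.927, against 0.979 to 0.983 for the 4. Mitochondrial genes took 19.6% of the counts in Nsd2 f/f replicate 3 and 5.51% to 9.13% elsewhere. Nsd2 itself was at 24.6 to 51.2 CPM in the Nsd2 f/f libraries and 10.4 to 24.2 CPM in Nsd2 Vil-KO libraries (log2 fold change −1.16, with a standard error, SE, of 0.39). It was lower in every Nsd2 Vil-KO library, although Nsd2 f/f replicate 3 lay next to Nsd2 Vil-KO replicate 1. Epithelial marker genes summed to 11457 to 17438 CPM in each library, and endothelial markers to 5.26 to 7.77 CPM.

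Across the 10 members, Hif1a was the only gene past the screening criterion used here (more than 1.2 times higher or lower, at a p below 0.05 before adjustment), and it was higher in Nsd2 Vil-KO mice. This is 1 of 10, beside 3.29% of all genes tested. The limits of 1.2 and 0.05 are those in the results of the study, which do not say whether that p was adjusted, while its methods name an adjusted p, so both counts were made. After Benjamini-Hochberg adjustment over all genes tested, 0 members and 0% of all genes had an adjusted p below 0.05 by edgeR's quasi-likelihood test, against 482 genes with an unadjusted p below 0.05. DESeq2 gave 4 genes, none of them a member, and limma 0. Hif1a and Egln3 were the members whose libraries did not overlap between genotypes, 2 of 10, beside 9.90% of all genes tested. Of the members, 7 had a higher and 3 a lower fitted value in Nsd2 Vil-KO mice. The median over the 10 was 0.29 on the log2 scale, beside 0.0012 for all genes tested.

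**Figure D1:**
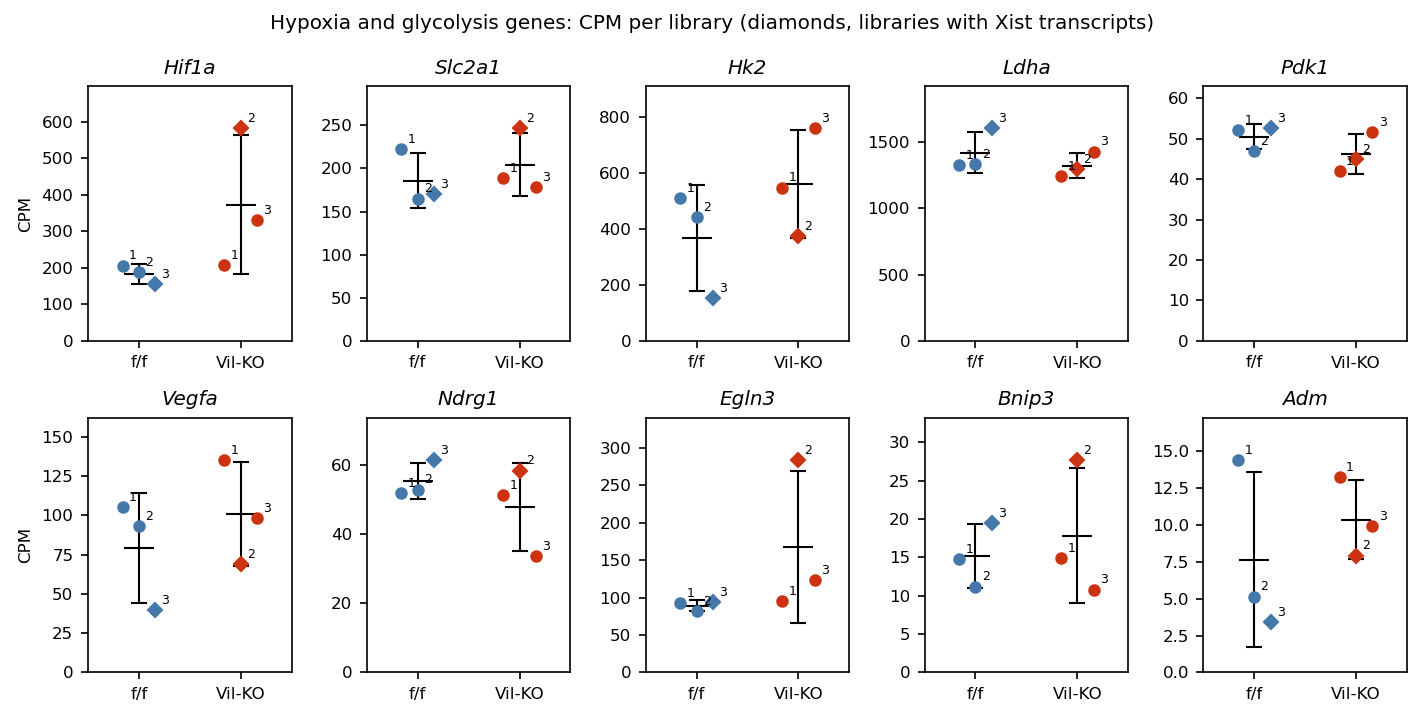
CPM of each member (vertical axes, from 0) in the 3 Nsd2 f/f and 3 Nsd2 Vil-KO libraries, with the replicate number beside each point, black bars for mean and SD, and diamonds for the libraries with Xist transcripts. Hif1a and Egln3 have every Nsd2 Vil-KO library above every Nsd2 f/f library, by 1.08 and 1.55 CPM at the closest, and their highest value is in Nsd2 Vil-KO replicate 2.

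Hif1a, which encodes the oxygen-regulated alpha subunit (ENSMUSG00000021109, GRCm38 chromosome 12, 73901375 to 73947530), was at 206.4, 189.1 and 154.5 CPM in the Nsd2 f/f libraries and at 207.4, 581.4 and 330.3 CPM in the libraries of Nsd2 Vil-KO mice. Nsd2 Vil-KO replicate 2 was far above the rest, whereas replicate 1 stood level with Nsd2 f/f replicate 1. The means were 183.3 ± 26.4 and 373.0 ± 190.6 CPM (SD, n = 3 each), a fold of 2.04 between them. Between genotypes the log2 fold change was 1.02 (SE 0.38, 95% interval 0.14 to 1.91, unadjusted p = 0.0293 and adjusted p = 0.992 from edgeR). An exact permutation test over the libraries gave p = 0.1 (two-sided), the smallest that 3 against 3 allows. The separation rested on a gap of 1.08 CPM between replicate 1 of Nsd2 Vil-KO and replicate 1 of Nsd2 f/f, whose 95% Poisson intervals, which cover counting error only, were 201.3 to 213.8 and 200.1 to 212.7 CPM, so these 2 libraries could not be told apart at this depth. Without Nsd2 Vil-KO replicate 2 the log2 fold change of Hif1a was 0.55 and no longer passed the criterion (unadjusted p = 0.0668 from edgeR). It did not pass without Nsd2 f/f replicate 2 or replicate 3 either, at 1.05 and 0.92, nor in the 4 libraries without Xist transcripts, at 0.45 (unadjusted p = 0.0983 from edgeR). In bulk RNA of this kind, fewer cells of a type and less RNA per cell cannot be told apart.

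Egln3, which encodes the hydroxylase PHD3 (ENSMUSG00000035105, chromosome 12, 54178981 to 54203860), was at 92.8, 81.5 and 93.7 CPM in the Nsd2 f/f libraries and at 95.3, 283.9 and 123.5 CPM in the libraries of Nsd2 Vil-KO mice. The Nsd2 f/f libraries lay close together, and Nsd2 Vil-KO replicate 2 again stood alone above the others. On the log2 scale the genotypes differed by 0.91 (SE 0.40, 95% interval −0.03 to 1.85, unadjusted p = 0.0568 from edgeR), so Egln3 did not pass the criterion. The gap that kept the genotypes apart was 1.55 CPM, between Nsd2 Vil-KO replicate 1 (95% Poisson interval 91.1 to 99.6) and Nsd2 f/f replicate 3 (88.4 to 99.3), and these intervals overlapped. Egln3 passed the criterion without Nsd2 Vil-KO replicate 1 (log2 fold change 1.19) and without Nsd2 Vil-KO replicate 3 (1.09), and stood at 0.29 without Nsd2 Vil-KO replicate 2. Hif1a and Egln3 thus shared the same highest library, and in both the lowest Nsd2 Vil-KO library was replicate 1, close to the highest Nsd2 f/f library.

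The related hydroxylase Egln1, which encodes PHD2, the main oxygen sensor of most cells, was at 53.4, 55.0 and 75.5 CPM in the Nsd2 f/f libraries and 54.1, 61.9 and 56.2 CPM in the libraries of Nsd2 Vil-KO mice. Per exon length, the log2 ratio of Egln3 to Egln1 within a library was 1.23, 1.00 and 0.74 in the Nsd2 f/f libraries and 1.25, 2.63 and 1.57 in the Nsd2 Vil-KO libraries. The ratio was above that of each Nsd2 f/f library in each Nsd2 Vil-KO library, with a difference of means of 0.83 (exact permutation test, two-sided, p = 0.1, adjusted p = 0.6 over the 6 pairs of related genes compared). Without Nsd2 Vil-KO replicate 2 this difference was 0.42. The nearest libraries, replicate 1 of each genotype, were close. Their log2 ratios were 1.25 in Nsd2 Vil-KO (1954 reads of Egln3 and 1110 of Egln1) and 1.23 in Nsd2 f/f (1872 and 1078 reads). Hif1a relative to Epas1, which encodes the alternative subunit HIF2A, differed by 1.06 in the same log2 measure (exact permutation p = 0.3), and by 0.66 without Nsd2 f/f replicate 3, 0.62 without Nsd2 Vil-KO replicate 2 and 1.62 without Nsd2 Vil-KO replicate 1. Its log2 ratio overlapped between the genotypes, at 1.24, 1.52 and 0.19 in Nsd2 f/f against 0.92, 2.92 and 2.30 in the Nsd2 Vil-KO libraries.

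Glucose enters most cells through GLUT1, the product of Slc2a1 (ENSMUSG00000028645, chromosome 4, 119108711 to 119137983). Slc2a1 was at 222.5, 165.0 and 170.3 CPM in the Nsd2 f/f libraries and at 188.5, 246.4 and 178.8 CPM in the libraries of Nsd2 Vil-KO mice. The groups overlapped, and the log2 fold change of 0.14 (SE 0.22) had a 95% interval of −0.38 to 0.65. Its fitted direction was not stable, since it stood at −0.017 without Nsd2 Vil-KO replicate 2. The neuronal and leukocyte transporter Slc2a3 was at 6.94 CPM in Nsd2 f/f replicate 1 and at 0.485 to 1.56 CPM in the other 5 libraries, so that Slc2a1 made up nearly all of the counts of the pair.

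Hk2 encodes hexokinase 2, which traps glucose in the cell by phosphorylation (ENSMUSG00000000628, chromosome 6, 82725025 to 82774454). It was at 509.6, 441.3 and 152.4 CPM in the Nsd2 f/f libraries and at 546.9, 372.7 and 757.9 CPM in the libraries of Nsd2 Vil-KO mice. The lowest values of each genotype were those of the libraries with Xist transcripts, and the groups overlapped. The log2 fold change was 0.60 (SE 0.47, 95% interval −0.52 to 1.73, unadjusted p = 0.244 from edgeR). In the 4 libraries without Xist transcripts, both Nsd2 Vil-KO libraries were above both Nsd2 f/f libraries and Hk2 passed the criterion at a log2 fold change of 0.47 (unadjusted p = 0.0317 from edgeR), where 11.0% of all genes passed and 44.0% did not overlap. With Xist as a covariate it passed at 0.73, where 7.82% of all genes passed. It did not pass with any 1 library left out, and stood at 0.24 without Nsd2 f/f replicate 3, 0.32 without Nsd2 Vil-KO replicate 3 and 0.91 without Nsd2 f/f replicate 1.

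Hexokinase isoforms shifted against each other between libraries. Hk1, the hexokinase of most tissues, was at 180.0, 233.7 and 268.2 CPM in the Nsd2 f/f libraries and 223.8, 455.8 and 288.4 CPM in the libraries of Nsd2 Vil-KO mice. Per exon length, Hk2 was at 4.05, 2.70 and 0.812 times the level of Hk1 in the Nsd2 f/f libraries, and at 3.49, 1.17 and 3.76 times in the Nsd2 Vil-KO libraries. Nsd2 f/f replicate 3 was the 1 library in which Hk1 was above Hk2. The difference in the mean log2 ratio between genotypes was 0.26 (exact permutation p = 0.7), with a sign that turned without Nsd2 f/f replicate 3 (−0.41) or without Nsd2 Vil-KO replicate 3 (−0.035). Hkdc1, a hexokinase-like gene of the same family, was at 3.17, 3.60 and 4.12 CPM in the Nsd2 f/f libraries and at 8.82, 25.0 and 5.93 CPM in the libraries of Nsd2 Vil-KO mice. It was higher in every Nsd2 Vil-KO library and passed the criterion (log2 fold change 1.87, SE 0.56, adjusted p = 0.992 from edgeR, unadjusted p = 0.0128). It also passed with each library left out in turn, at 1.03 without Nsd2 Vil-KO replicate 2. Hkdc1 is named because it passed in these same libraries, so these fits add no independent support.

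Ldha encodes the subunit of lactate dehydrogenase that favours lactate formation (ENSMUSG00000063229, chromosome 7, 46841475 to 46855627). It was at 1327, 1334 and 1603 CPM in the Nsd2 f/f libraries and at 1245, 1295 and 1428 CPM in the libraries of Nsd2 Vil-KO mice. The genotypes overlapped within a narrow range, and Nsd2 f/f replicate 3 was highest. Between genotypes the log2 fold change was −0.10 (SE 0.23), with a 95% interval of −0.66 to 0.45. Ldhb, the partner subunit that favours pyruvate formation, was at 0.153 to 3.27 CPM, from 3 to 59 reads. Per exon length Ldha was at 187.6 to 4421 times its level in the 6 libraries. The ratio of 4421, in Nsd2 Vil-KO replicate 3, rests on 3 reads of Ldhb, the floor, and is imprecise.

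Pdk1 encodes a kinase that switches off pyruvate dehydrogenase and so holds pyruvate back from mitochondria (ENSMUSG00000006494, chromosome 2, 71873224 to 71903858). It was at 52.0, 46.9 and 52.5 CPM in the Nsd2 f/f libraries and at 41.9, 44.9 and 51.5 CPM in the libraries of Nsd2 Vil-KO mice. The 6 libraries were close together, with Nsd2 Vil-KO replicate 3 inside the range of Nsd2 f/f. On the log2 scale the genotypes differed by −0.13 (SE 0.16, 95% interval −0.52 to 0.26), the narrowest interval of the members. The related kinase Pdk4 had too few counts to be tested, with 6, 2 and 7 reads in Nsd2 f/f and 7, 435 and 0 reads in the Nsd2 Vil-KO libraries, so its 1 high library was again Nsd2 Vil-KO replicate 2.

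Vegfa encodes the main growth factor of blood vessels (ENSMUSG00000023951, chromosome 17, 46016993 to 46032369). It was at 105.3, 93.2 and 39.6 CPM in the Nsd2 f/f libraries and at 135.3, 69.0 and 98.3 CPM in the libraries of Nsd2 Vil-KO mice. As with Hk2, the libraries with Xist transcripts were the lowest of each genotype and the groups overlapped. The log2 fold change was 0.34 (SE 0.40, 95% interval −0.60 to 1.29). Leaving out Nsd2 f/f replicate 3 gave 0.026 and leaving out Nsd2 Vil-KO replicate 1 gave 0.076, against 0.60 with Nsd2 f/f replicate 1 removed and 0.56 with Nsd2 Vil-KO replicate 2 removed.

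Adm encodes adrenomedullin, a secreted peptide that widens vessels and tightens their lining (ENSMUSG00000030790, chromosome 7, 110627661 to 110629820). It was at 14.4, 5.14 and 3.39 CPM in the Nsd2 f/f libraries and at 13.3, 7.93 and 9.91 CPM in the libraries of Nsd2 Vil-KO mice. Here too the libraries with Xist transcripts were the lowest of each genotype, while the highest library was Nsd2 f/f replicate 1. Between genotypes the log2 fold change was 0.42 (SE 0.54, 95% interval −0.85 to 1.70). Without Nsd2 f/f replicate 1 Adm passed the criterion at 1.27 (unadjusted p = 0.0228 from edgeR), whereas it stood at 0.082 without Nsd2 f/f replicate 3 and at 0.21 without Nsd2 f/f replicate 2 or Nsd2 Vil-KO replicate 1. In Nsd2 f/f replicate 1, fibroblast markers summed to 262.8 CPM against 5.05 to 69.9 CPM in the other libraries. Monocyte and macrophage markers summed to 208.5 against 12.8 to 77.3 CPM, and red blood cell markers to 21.5 against 1.30 to 7.51 CPM. The part of these cells in the values of Adm was not tested.

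Most receptors of these secreted factors were near the floor. Of 7 receptor genes 3 passed the filter and 0 passed the criterion. The VEGF receptor genes Kdr and Flt1 reached at most 0.595 and 0.446 CPM, and Calcrl, the adrenomedullin receptor, had 0.166 to 0.868 CPM. The co-receptor genes of VEGF stood higher, with Nrp1 at 1.39 to 6.09 CPM and Nrp2 at 6.90 to 20.1 CPM.

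Ndrg1 is a gene of epithelial differentiation and stress that HIF raises (ENSMUSG00000005125, chromosome 15, 66929318 to 66969640). It was at 51.9, 52.8 and 61.4 CPM in the Nsd2 f/f libraries and at 51.2, 58.3 and 33.6 CPM in the libraries of Nsd2 Vil-KO mice. Nsd2 Vil-KO replicate 3 was below the other 5, which lay together. On the log2 scale the genotypes differed by −0.21 (SE 0.23, 95% interval −0.76 to 0.34), and it was −0.015 without Nsd2 Vil-KO replicate 3.

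Bnip3 encodes a receptor on mitochondria that marks them for removal by autophagy (ENSMUSG00000078566, chromosome 7, 138890836 to 138909519). It was at 14.8, 11.2 and 19.5 CPM in the Nsd2 f/f libraries and at 14.9, 27.7 and 10.8 CPM in the libraries of Nsd2 Vil-KO mice. The libraries with Xist transcripts were the highest of each genotype, in contrast to Hk2, Vegfa and Adm. The log2 fold change was 0.23 (SE 0.39, 95% interval −0.70 to 1.17), and it was −0.23 without Nsd2 Vil-KO replicate 2. Relative to Bnip3l, which encodes the related receptor NIX, the log2 ratio of Bnip3 per exon length was −1.64, −1.84 and −1.61 in Nsd2 f/f and −1.42, −0.92 and −1.75 in the Nsd2 Vil-KO libraries, so Bnip3l was the higher of the pair in each library. The mean log2 ratios differed between genotypes by 0.33 for this pair (exact permutation p = 0.3), by 1.06 for Slc2a1 to Slc2a3 (p = 0.6) and by 1.11 for Ldha to Ldhb (p = 0.6). Leaving out 1 library moved each of them, as Bnip3 to Bnip3l was at 0.11 without Nsd2 Vil-KO replicate 2, Slc2a1 to Slc2a3 at 0.06 without Nsd2 f/f replicate 1, and Ldha to Ldhb at 0.014 without Nsd2 Vil-KO replicate 3 and 2.29 without Nsd2 Vil-KO replicate 2. Exons of Gm45507 on the opposite strand cover 22.3% of the exon bases of Bnip3, and this gene had 0 counts. Of the other members, Hif1a, Slc2a1 and Ndrg1 share at most 6.35% of their exon bases with another gene.

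**Figure D2:**
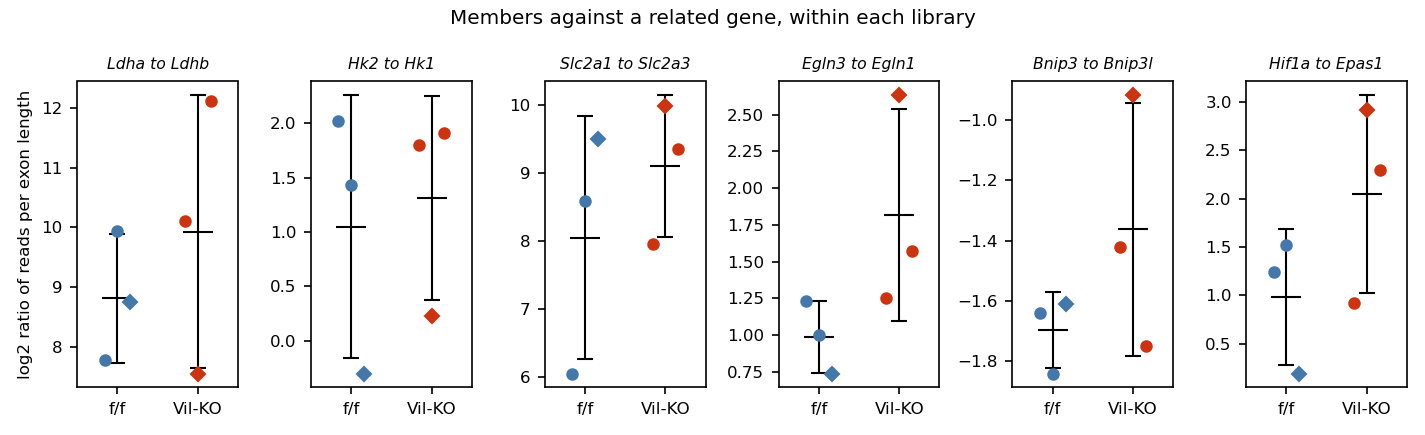
Log2 ratio of a member to a related gene, both per exon length, in each library (vertical axes do not start at 0), with mean and SD as black bars and diamonds for libraries with Xist transcripts. Of the 6 pairs, only Egln3 to Egln1 has every Nsd2 Vil-KO library above every Nsd2 f/f library, at 1.25 against 1.23 for the closest.

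**Figure D3:**
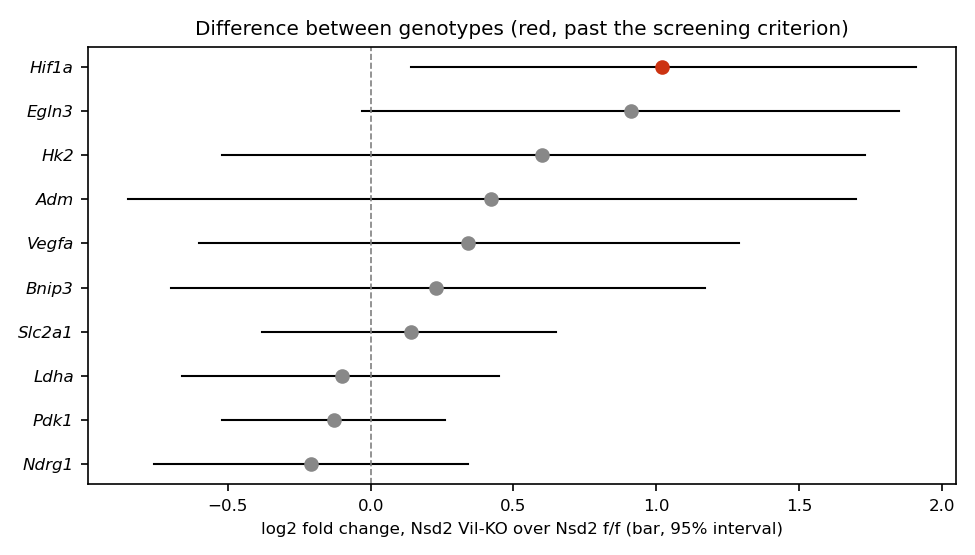
Fitted log2 fold change of each member, Nsd2 Vil-KO over Nsd2 f/f (horizontal axis), with the 95% interval as a bar. The interval of Hif1a, 0.14 to 1.91, is the only one of the 10 that lies wholly on one side of 0, and those of Pdk1 and Slc2a1 are the narrowest.

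The members did not vary as a unit between libraries. Nsd2 Vil-KO replicate 2 held the highest value of 4 members (Hif1a, Egln3, Slc2a1 and Bnip3) and the lowest of 0, whereas over all genes tested it held the highest value of 28.7% and the lowest of 29.2%. Nsd2 f/f replicate 3 held the lowest value of 4 members (Hif1a, Hk2, Vegfa and Adm) and the highest of 3 (Ldha, Pdk1 and Ndrg1), beside 25.5% and 23.7% of all genes tested. Between these libraries, the only pair with Xist transcripts, Hif1a was 3.76 times, Egln3 3.03 times and Hk2 2.45 times as high in Nsd2 Vil-KO as in Nsd2 f/f. Between the means of the other 2 libraries of each genotype the ratios were 1.36, 1.26 and 1.37. Ldha had 0.808 and 1.00 in the same measures, and Slc2a1 1.45 and 0.948.

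**Figure D4:**
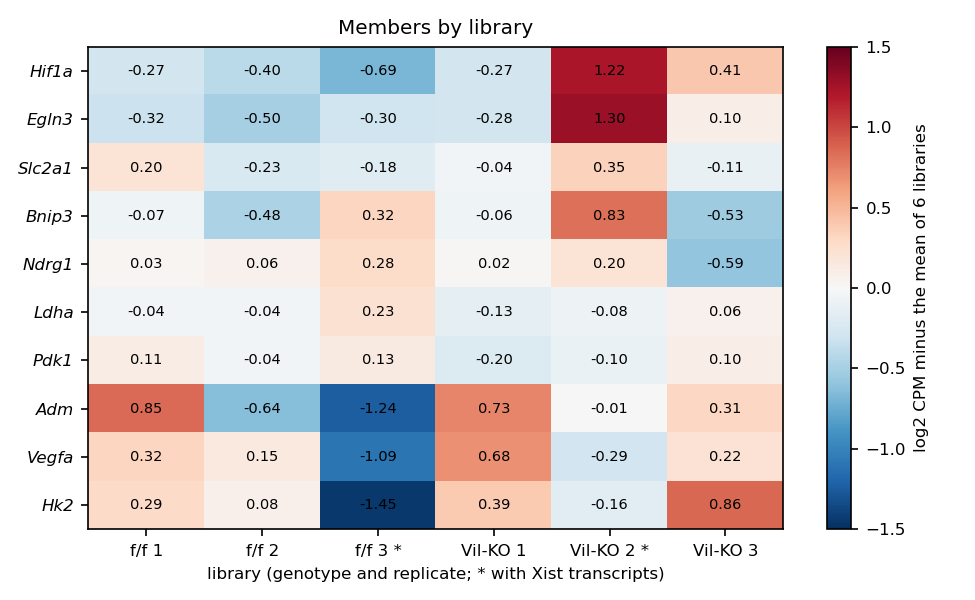
Log2 CPM of each member (rows) in each library (columns) minus its mean over the 6 libraries, where red is above and blue below that mean. Hif1a and Egln3 are at 1.22 and 1.30 in Nsd2 Vil-KO replicate 2, and Hk2, Vegfa and Adm are at −1.45, −1.09 and −1.24 in Nsd2 f/f replicate 3, while Ldha and Pdk1 stay between −0.20 and 0.23.

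The ratio of the highest to the lowest library placed Pdk1 (1.25) and Ldha (1.29) at percentiles 3.65 and 5.40 of all genes tested. Slc2a1 (1.49) and Ndrg1 (1.83) stood at percentiles 18.1 and 36.7. Bnip3 (2.57) was at 59.7. Vegfa (3.42), Egln3 (3.48), Hif1a (3.76), Adm (4.25) and Hk2 (4.97) lay between percentiles 71.0 and 80.7, above the median ratio of 2.17. By this ratio, which includes any gap between genotypes, Hk2, Vegfa, Adm, Hif1a and Egln3 varied more than most genes, and Ldha and Pdk1 less. In the spread within genotypes fitted by edgeR (dispersion), Hif1a, Egln3 and Vegfa were nearer the middle, at percentiles 53.4, 56.4 and 56.6. Hk2 and Adm were at 67.5 and 78.6 in that measure, and Ldha and Pdk1 at 17.9 and 3.1.

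Levels of different genes can be compared only per length. Ldha was highest, at a mean of 414.5 CPM per kilobase of exon over the 6 libraries (SD 38.7), and its lowest library was above the highest of any other member. Hk2 (77.7, SD 33.6), Slc2a1 (55.7, SD 9.20), Egln3 (48.3, SD 29.1) and Hif1a (47.2, SD 27.2) followed, and neighbours in this order differed by less than the larger of their SDs. Vegfa came next at 21.0 (SD 7.64). Ndrg1 (7.81, SD 1.46), Bnip3 (7.27, SD 2.80), Pdk1 (6.21, SD 0.564) and Adm (5.57, SD 2.70) were the lowest, and in this order too neighbours were within the larger SD of each other. Egln3 was at 106.6 CPM per kilobase in Nsd2 Vil-KO replicate 2, above both Hk2 (62.5) and Slc2a1 (70.3) there.

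The libraries that stood apart for these members also differed in their cell type markers. In Nsd2 Vil-KO replicate 2, where Hif1a and Egln3 were highest, neutrophil markers summed to 2353 CPM against 197.8 to 884.2 CPM in the other 5. Ly6g, S100a8 and S100a9 were highest in that library, at 1355, 573.9 and 404.9 CPM. Csf3r, Cxcr2 and Retnlg went the other way and were highest in Nsd2 f/f replicate 1, with Csf3r at 0.666 CPM in Nsd2 Vil-KO replicate 2. In Nsd2 f/f replicate 3 Ly6g was at 197 CPM of a sum of 206.4, with S100a8 at 3.07 CPM, so the sum there was mostly 1 gene. The crypt base marker Lgr5 was at 0.111 CPM in Nsd2 Vil-KO replicate 2 against 7.11 to 14.9 in the others. In Nsd2 f/f replicate 3, where Hk2, Vegfa and Adm were lowest, the 6 markers of absorptive colonocytes summed to 7041 CPM against 2395 to 3400 CPM. The 5 markers of crypt base and cycling cells summed to 122.3 CPM in Nsd2 f/f replicate 3 and 171.5 CPM in Nsd2 Vil-KO replicate 2, against 499.2 to 700.5 CPM in the 4 libraries without Xist. Goblet cell markers summed to 12402 to 14307 CPM in the Nsd2 f/f libraries and 8104 to 10091 CPM in Nsd2 Vil-KO libraries. Of these 6 markers, only Clca1 separated the genotypes by itself. Muc2, the highest of them on average, overlapped, at 3512 to 6857 CPM in Nsd2 f/f and 2246 to 5548 CPM in Nsd2 Vil-KO. No gene of these lists was at 0 in all libraries. The part of these cells in the values of Hif1a, Egln3, Hk2, Vegfa and Adm was not tested.

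The other genes of the pathway were counted from lists written with earlier results of these data known, beside 1.65% of all genes tested that passed the criterion in each direction. Among 8 tested genes of HIF subunits and oxygen sensing, 0 passed, and their median was −0.065 on the log2 scale. Vhl, which targets HIF for degradation, was at 18.9 to 22.2 CPM in the Nsd2 f/f libraries and 18.0 to 18.2 CPM in Nsd2 Vil-KO (log2 fold change −0.19, SE 0.19, unadjusted p = 0.349 from edgeR). The genotypes did not overlap, as for 9.90% of all genes tested. The nearest libraries, Nsd2 f/f replicate 2 and Nsd2 Vil-KO replicate 3, were close, at 18.9 CPM (320 reads) and 18.2 CPM (356 reads). Hif1an, which blocks HIF activity by hydroxylation, differed by −0.16 on the log2 scale (SE 0.19).

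Of 24 tested genes of glycolysis and lactate export, 1 (Hkdc1) passed upwards and 0 downwards, with 8 higher, 16 lower and a median of −0.14. Nsd2 f/f replicate 3 held the highest CPM of 14 of the 24 (58.3%), beside 23.7% of all genes tested, whereas Hk2 was lowest there. The TMM factor of that library was the smallest, 0.803 against 0.887 to 1.104 in the others. Some margins were narrow, as for Gapdh, at 135.1 CPM against 134 CPM in Nsd2 Vil-KO replicate 2. The highest library was not counted on library size alone. The counts of Gapdh, 52.4 to 135.1 CPM, are to be read with care. This gene has many near-identical copies in the genome, and their part in its counts was not tested.

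Among 9 tested genes of pyruvate dehydrogenase, its kinases and phosphatases 0 passed (median −0.027). Pdp2, a phosphatase that switches the enzyme back on, differed by −0.92 on the log2 scale (SE 0.50), and the kinase gene Pdk2 by −0.84 (SE 0.58). Pdk2 was at 88.9 CPM in Nsd2 f/f replicate 3 and at 17.7 to 35.2 CPM elsewhere.

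Of 22 other HIF target genes, 0 passed upwards and 1 (Lox) downwards, with 7 higher, 15 lower and a median of −0.078. Lox, which cross-links collagen, was at 6.19, 0.650 and 0.242 CPM in the Nsd2 f/f libraries and 0.585, 0.0555 and 0 CPM in the libraries of Nsd2 Vil-KO mice (log2 fold change −3.45, SE 1.39, unadjusted p = 0.0402 from edgeR). Without Nsd2 f/f replicate 1, the library with the highest sums of fibroblast, macrophage and red blood cell markers, the log2 fold change of Lox was −1.06 and did not pass, and it did not pass without Nsd2 Vil-KO replicate 2 (−3.04) or replicate 3 (−2.87). The part of these cells in it was not tested. Ak4, a mitochondrial adenylate kinase, was at 67.0, 61.6 and 11.7 CPM in the Nsd2 f/f libraries and 26.9, 18.6 and 12.7 CPM in the libraries of Nsd2 Vil-KO mice (log2 fold change −1.27, SE 0.61, unadjusted p = 0.0751 from edgeR). Ak4 passed at −1.73 without Nsd2 f/f replicate 3. Angptl4, singled out after its values were seen, resembled Pdk4 in having 1 high library, at 25.3 CPM in Nsd2 Vil-KO replicate 2 against 0.0488 to 0.808 CPM in the other 5.

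Of 7 tested epithelial barrier genes tied to HIF, 0 passed, with 1 higher, 6 lower and a median of −0.23. Tff3, a goblet cell peptide that aids repair of the mucosa, was at 756.2, 724.2 and 1087 CPM in the Nsd2 f/f libraries and 433.1, 788.9 and 457.8 CPM in the libraries of Nsd2 Vil-KO mice (log2 fold change −0.61, SE 0.32, unadjusted p = 0.0982 from edgeR). Without Nsd2 Vil-KO replicate 2 it passed at −0.94. Ckmt1, a mitochondrial creatine kinase, was at 5242 CPM in Nsd2 f/f replicate 3 and at 1303 to 1896 CPM elsewhere (log2 fold change −0.83, SE 0.53).

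**Figure D5:**
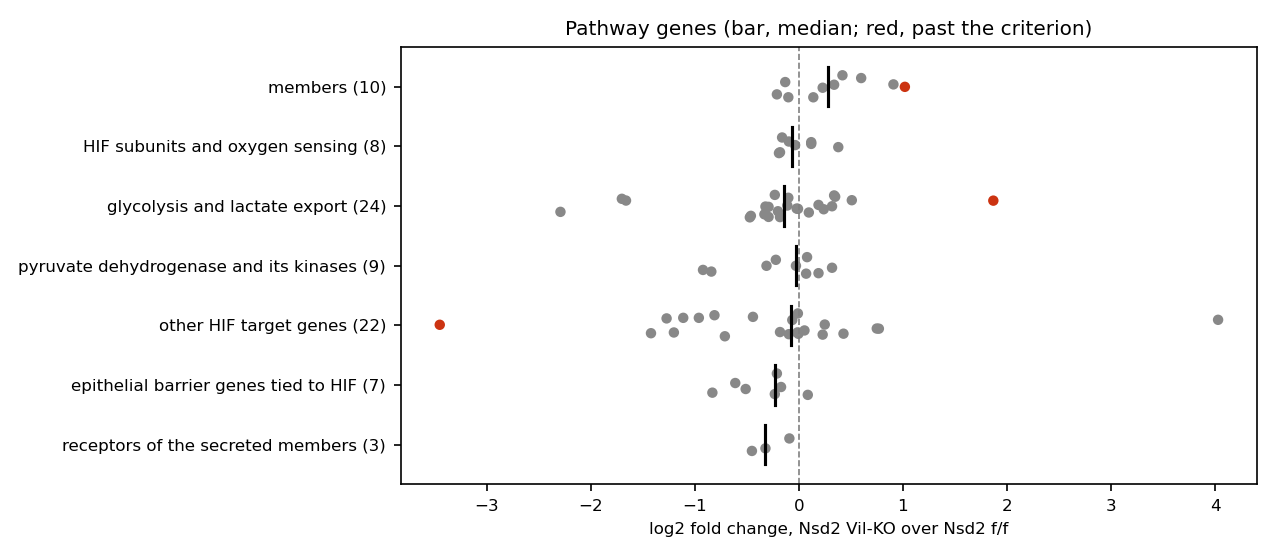
Fitted log2 fold change, Nsd2 Vil-KO over Nsd2 f/f (horizontal axis), of each tested gene in the member list and the 6 other lists (rows, number of tested genes in brackets), where red points passed the criterion and black bars are medians. The 3 red points are Hif1a, Hkdc1 and Lox, and the medians lie between −0.32 and 0.29.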

How the data were processed

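Each of the 6 libraries was assigned to its genotype from the sample labels. The values deposited by the authors are raw counts, 1 row for each Ensembl gene, not scaled in any way. According to the study, poly(A) RNA was sequenced in paired ends, trimmed with Cutadapt and Trimmomatic and aligned to GRCm38 (mm10) with HISAT2. Which program made the counts, and whether with strand, is not given in the sources used here, so overlapping genes can share reads. The kit in the labels is not that in the methods. All columns of the table were used (0 left out), and depth is given with the libraries above.

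Genotypes were compared with edgeR 4.0.16 in R 4.3.3 (TMM, filterByExpr, robust quasi-likelihood test without covariates or legacy mode), with Benjamini-Hochberg adjustment over 14650 genes. The study tested FPKM with Ballgown, which counts do not allow. The script was tested on simulated data. Intervals of log2 fold changes are 95%. Ratios between related genes were compared by exact permutation tests (two-sided), adjusted over 6 pairs, since Pdk1 to Pdk4 could not be formed with 0 reads of Pdk4 in 1 library. Exon lengths and coordinates came from GENCODE vM21, in which 99.5% of the listed IDs were found. Figures were drawn with matplotlib 3.10.9.

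The members and lists were chosen with earlier results of these data known. Named genes were the members, Nsd2, the related genes paired with them and, from each other list, genes past the criterion and those with the 2 smallest p. A gene that this rule names is not reported here. Alternatives were other size factors, library size only, mitochondrial genes left out, no filter or at least 10 counts in each library, DESeq2 1.42.0, limma 3.58.1 (voom with quality weights, or log2(CPM + 1)), a replicate block, Xist as a covariate, the 4 libraries without Xist, a fold limit of 2 and each library left out. The legacy mode of edgeR was added after the data were seen.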

Additional observations from a re-analysis of the deposited data

How the results depend on the processing

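The 1 member past the criterion, beside 3.29% of all genes, became 2 (Hif1a and Egln3) in 3 settings. These were library size only, no filter on low counts and DESeq2, where 2.61%, 3.27% and 4.32% of all genes passed. The count was 3 with Xist as a covariate (also Hk2), beside 7.82%, and 0 with a replicate block, beside 2.07%. In the 4 libraries without Xist the count was 1, beside 11% of all genes. That gene was Hk2, and Hif1a fell short at a log2 fold change of 0.45. With each library left out, the count was between 0 and 2, beside 2.14% to 5.08% of all genes. That of members without overlap was between 2 and 4 of 10, beside 15.5% to 29.0% of all genes. The median was between 0.082 and 0.44, and no member had an adjusted p below 0.05 in any setting run. The median was 0.13 with limma-voom and in the 4 libraries without Xist. The cause of these differences was not tested.

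Signs turned for members near 0. Slc2a1 was at −0.0066 with limma-voom, −0.067 in the 4 libraries without Xist and between −0.017 and 0.29 with each library left out. Bnip3 was at −0.012, −0.0082 and between −0.23 and 0.49 in these settings. Ldha was at 0.017 in the 4 libraries without Xist. The log2 ratio of Hk2 to Hk1 lay between −0.41 and 0.81 with each library left out. Hif1a kept its direction in all alternatives, from 0.45 to 1.32, as did Egln3, from 0.29 to 1.19. For both genes the genotypes did not overlap in any setting, so the sign could not turn and adds nothing to that separation.

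Replicate numbers are shared by the genotypes, and deviations of libraries with the same number correlated at 0.32, −0.35 and −0.11. With 3 libraries of each genotype, these values cannot tell whether the numbers pair the libraries. With the replicate block Hif1a was at 0.91 (unadjusted p = 0.0586 from edgeR), and 303 of all genes passed instead of 482. Over all genes, 1440 passed with limma-voom, 1145 with Xist as a covariate, 1646 in the 4 libraries without Xist and 861 without a filter. Each member had at least 42 reads in every library, and 3 against 3 libraries give no exact p below 0.1.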
